A study of Mus musculus with 30 samples.

Results

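A set of 5 genes of cell adhesion was followed through the culture of mouse limb mesenchyme, the loose embryonic tissue that packs together into condensations before it forms cartilage. They are St8sia2 and St8sia4, which encode the polysialyltransferases; Ncam1, which encodes the neural cell adhesion molecule; and Cdh2 and Cdh11, which encode N-cadherin and cadherin-11. The set was named with earlier results of these data known, and the large St8sia4 difference in early cultures with BMP4 was among them, so that difference is described here without a test. All 5 genes were on the array and were among the 15136 genes tested, of 18194 with 1 symbol. Each was read from the brightest of its probe sets, the groups of short probes that the array uses for 1 transcript, so each probe set was chosen by its brightness over all 30 arrays.

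Polysialic acid is a long sugar chain that St8sia2 and St8sia4 build, mainly on NCAM. The chain is bulky and charged, and it weakens the adhesion between cells that carry it. N-cadherin and NCAM are known for holding prechondrogenic cells together during condensation of the limb bud, and cadherin-11 is a marker of mesenchyme. RNA levels do not measure the sugar chain or the proteins.

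The cells came from limb buds of CD-1 mouse embryos at E10.5. The labels call cells from the distal part of the hind limb early, cells from the distal end of the forelimb intermediate, and cells of the proximal rest of the forelimb late. High-density cultures of each population were sampled in control medium at days 0, 1 and 2, and at days 1 and 2 with BMP4, a bone morphogenetic protein, present at 20 ng/ml from time 0. The 15 groups hold 2 biological replicates each, from cultures of pooled embryos. Early cells differ from the others in limb type as well as in their name, so these cannot be told apart. Values are the deposited signal intensity as log2(signal + 16), differences are on that scale, and a gene is called at an adjusted p under 0.05 from limma, with Benjamini-Hochberg adjustment over all genes tested. Where arrays of 2 groups are said not to overlap, the share of all genes without overlap was not counted.

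Replicates of a group correlated with r of 0.97 to 0.984 across genes, which are not independent replicates. All 10 limb mesenchyme markers lay above the 40th percentile of their array in every group. The 3 arrays labelled replicate 2 at day 0 went against their labels. Pitx1, a hindlimb gene, was at 9.74 and 5.90 on the arrays labelled early and at 6.15 and 9.43 on those labelled intermediate. Tbx5, a forelimb gene, was at 4.47 and 8.50, and at 8.47 and 4.68. Meis2, a proximal limb gene, was at 9.60 and 7.53 on the arrays labelled late, whose cultures lay between 9.37 and 10.45. The labels were kept. First-day changes and day 0 comparisons are given with and without these 3 arrays, and group means and their order use all arrays. Red blood cell markers, summed over 7 genes, read 16770 to 17880 on replicate 1 and 7385 to 9232 on replicate 2 at day 0. At days 1 and 2 the sum was at most 449.7 on any array.

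The upstream sequences of St8sia4 and St8sia2 are shown because both enzymes build the same sugar chain. Both are the 250 bases before the gene's start in RefSeq, assembly GRCm38.p6, read 5′ to 3′ on the gene's strand; the table used matched 2 of the 5 genes, these 2. The St8sia4 window is chr1:95667595-95667844, minus strand, and the St8sia2 window is chr7:74013683-74013932, minus strand. Capitals mark the motifs searched on both strands: GTCTG, a SMAD box (CAGAC on the other strand), GGCGCC, a palindromic SMAD element, and GGGCGG, an Sp1 box (CCGCCC on the other strand).
St8sia4: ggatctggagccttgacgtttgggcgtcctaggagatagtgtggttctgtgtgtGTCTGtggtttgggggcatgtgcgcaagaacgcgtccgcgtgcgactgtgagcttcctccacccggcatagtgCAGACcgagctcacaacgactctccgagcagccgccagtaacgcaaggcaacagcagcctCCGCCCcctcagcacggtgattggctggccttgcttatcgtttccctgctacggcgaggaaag
St8sia2: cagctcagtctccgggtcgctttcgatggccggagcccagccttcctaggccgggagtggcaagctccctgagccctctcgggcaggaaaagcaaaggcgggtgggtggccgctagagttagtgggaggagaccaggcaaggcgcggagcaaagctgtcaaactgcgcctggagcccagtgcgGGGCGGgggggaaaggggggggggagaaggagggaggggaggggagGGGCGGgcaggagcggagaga
GTCTG was found 2 times upstream of St8sia4 and 0 times upstream of St8sia2, and 42.2% of all 32851 promoter windows of this length hold it. GGCGCC was found in neither, against 9.59% of windows. GGGCGG was found 1 time for St8sia4 and 2 times for St8sia2, against 32.7% of windows. No 2 matches overlapped. A match of letters is a description and not a binding site.

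St8sia4 rested at a low level at day 0 in all 3 populations and reached its highest levels in early cultures with BMP4. At day 0 the 6 arrays lay between 5.95 and 6.14, whatever their label. In early control cultures it was at 6.54 and 6.30 at day 1 and at 6.56 and 6.60 at day 2. With BMP4 it was at 9.92 and 9.08 at day 1 and at 9.18 and 9.37 at day 2. The BMP4 and control arrays did not overlap on either day. Of all genes, 2.45% were called at early day 1 and 5.68% at early day 2. The difference was 3.08 ± 0.22 (SE, n = 2 per group), 8.45-fold, at day 1 and 2.69 ± 0.22, 6.47-fold, at day 2, as a description. On the linear scale this is a signal of 951 and 527 against 77.3 and 62.9 at day 1. The dimmer of its 2 probe sets differed by 1.34 ± 0.45 and 1.26 ± 0.45 on the same days.

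In forelimb cells the St8sia4 difference with BMP4 was smaller. Intermediate cultures were at 5.78 and 5.72 without and at 6.05 and 6.44 with BMP4 at day 1, and at 5.52 and 5.78 against 6.21 and 6.28 at day 2. Late cultures were at 6.95 and 7.41 against 7.63 and 7.77 at day 1, and at 6.35 and 6.33 against 6.99 and 7.30 at day 2. BMP4 arrays lay above control arrays in all 4 of these comparisons without overlap, as a description. Of all genes, 0.238% and 0.00661% were called in intermediate cells and 0.0793% and 0.0132% in late cells at days 1 and 2. These shares are of called genes and not of genes without overlap. The differences were 0.50 (adjusted p = 0.609), 0.60 (0.942), 0.52 (0.563) and 0.80 (0.591), each ± 0.22 and none called. In a comparison added after seeing the data, which averages both days and both forelimb populations, St8sia4 rose by 0.60 ± 0.11, 1.52-fold (limma adjusted p = 0.00434). In that comparison 2% of all genes were called, and St8sia4 and Ncam1 were the called genes among the 5. The dimmer probe set gave -0.14 and 0.54 in intermediate and 0.77 and 0.28 in late cultures, so at intermediate day 1 the 2 probe sets differed in sign. The response was 2.23 ± 0.22 larger in early than in late cultures and 2.34 ± 0.22 larger than in intermediate cultures, as a description. Between intermediate and late cultures it differed by -0.11 ± 0.22 (adjusted p = 1), with 0% of all genes called and 598 at an unadjusted p under 0.05.

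Without BMP4, St8sia4 differed between populations. In late control cultures it rose over the first day by 1.15 ± 0.22, 2.21-fold (adjusted p = 0.000846), where 18.9% of all genes were called. Without the doubted day 0 arrays the rise was 1.11 ± 0.28 (adjusted p = 0.0178). It was then 0.84 ± 0.22 lower at day 2 than at day 1, which was not called (adjusted p = 0.0796). In early cultures day 1 differed from day 0 by 0.39 ± 0.22 (adjusted p = 0.264) and in intermediate cultures by -0.30 ± 0.22 (adjusted p = 0.375), neither called; without the doubted arrays these were 0.32 and -0.20. Over the control cultures of days 1 and 2, another comparison added after seeing the data, intermediate cells were lower than late cells by 1.06 on the log2 scale, a difference of -1.06 ± 0.15 (adjusted p = 0.000286). Early cells were higher than intermediate cells by 0.80 ± 0.15 (adjusted p = 0.0102), and early and late cells differed by -0.26 ± 0.15 (adjusted p = 0.719). The early minus intermediate call was lost without early day 1 control replicate 1 (adjusted p = 0.0802), without intermediate day 2 control replicate 1 (0.0789) and with a pseudocount of 64 (0.0679), where the difference was 0.47. Of all genes, 2.64%, 0.852% and 1.48% were called in these comparisons. These differences were those of the brighter probe set. The dimmer had control means of 5.04 and 5.04 in intermediate cells and 5.11 and 5.31 in late cells at days 1 and 2. In early cells its control means were higher than both, at 5.40 and 5.50. The first-day rise in late cells was that of the brighter probe set; the dimmer gave -0.33 ± 0.45 (adjusted p = 0.702), and -0.54 (0.622) without the doubted arrays.

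The order of the 15 St8sia4 group means ran from the BMP4 groups of early cells (9.50 and 9.28) through late day 1 with BMP4 (7.70) to late day 1 control (7.18) and late day 2 BMP4 (7.14). The remaining 10 groups lay between 5.65 and 6.58. The gap from 9.28 to 7.70 was 13.5 times the pooled SD of the neighbouring groups. The step between the early BMP4 groups, and that between late day 1 control and late day 2 BMP4, lay within that SD. The genes whose 15 group means ran most like it were Ralyl (Pearson r = 0.934), Pcdh20 (0.918), Ptn and Pxt1 (both 0.906). These correlations describe shared arrays and carry no test.

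**Figure D1:**
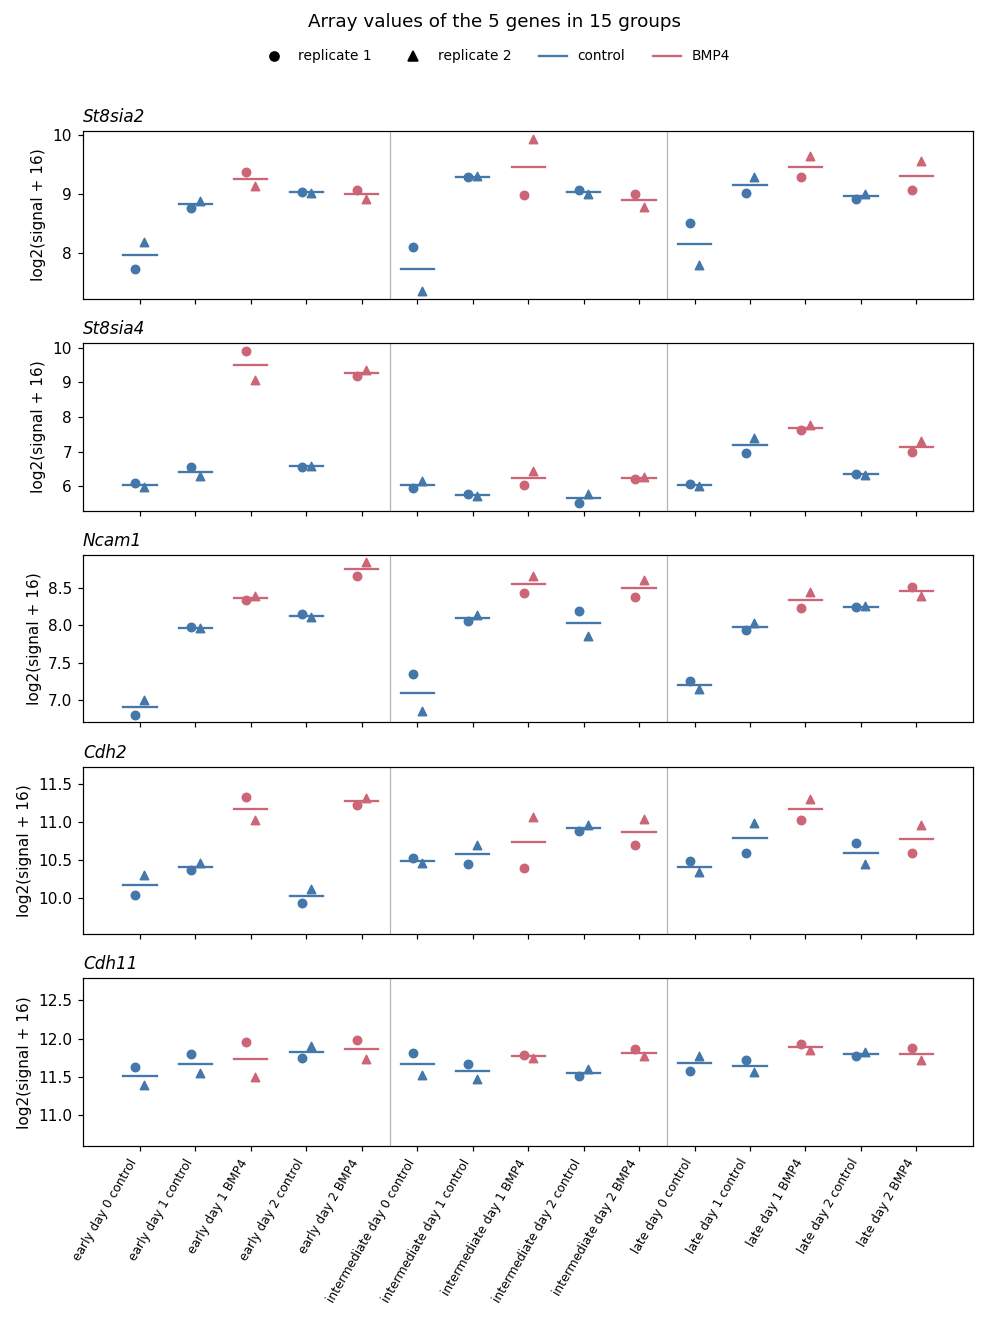
Level of each gene on every array as log2(signal + 16), by group; circles are replicate 1, triangles replicate 2 and bars the mean of both, with control in blue and BMP4 in red. Vertical axes differ between panels; St8sia4 reached 9.50 and 9.28 (means) in early cultures with BMP4, and Cdh11 stayed between 11.39 and 11.99 on all arrays.

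Markers of other cell types differed between some of the same groups. Summed over 13 macrophage and leukocyte genes, the signal in early cultures was 905.1 and 1062 in control and 1545 and 1799 with BMP4 at day 1, and 847.9 and 967.6 against 1997 and 2117 at day 2. Of the 13 genes, 2 rose at day 1 and 8 at day 2; in early control cultures 10 and 9 of them lay above the 40th percentile on both arrays, and with BMP4 12 and 13. In intermediate cultures the sum was 1246 and 1161 against 1702 and 2092 at day 1, and 891.7 and 984.8 against 1694 and 1853 at day 2, where St8sia4 was 0.50 and 0.60 higher. In late cultures it stayed between 766 and 869 with and without BMP4. Nerve and Schwann cell genes, 10 on the array, summed to 716.1 to 874.1 in early control cultures and to 877.7 to 1192 with BMP4. These genes did not all move together. With both days averaged, Erbb3 fell in early cultures with BMP4 (-1.06 ± 0.26, limma adjusted p = 0.0102). Tubb3 (0.97 ± 0.24, 0.0117) and Stmn2 (1.19 ± 0.31, 0.0162) rose there. Isl1 had early means of 8.62 and 8.63 with BMP4 at days 1 and 2, against 7.52 and 7.89 in control. Its control means were 5.00 and 4.76 in intermediate and 6.23 and 6.25 in late cells, so it also differed between populations. The sum was not taken without Isl1 and cannot be read as nerve cells alone. Skeletal muscle genes, 15 on the array, summed to 4079 to 10320 in late cultures of days 1 and 2 and to 337.9 to 2868 in early and intermediate cultures. Late muscle signal was 5906 and 5388 at day 1 and 7785 and 8059 at day 2 in control medium, while St8sia4 was lower at day 2. The part of these cells in the St8sia4 values, and in the early Cdh2 and Ncam1 values given further on, was not tested. In bulk RNA, more cells of a type and more RNA per cell cannot be told apart.

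**Figure D2:**
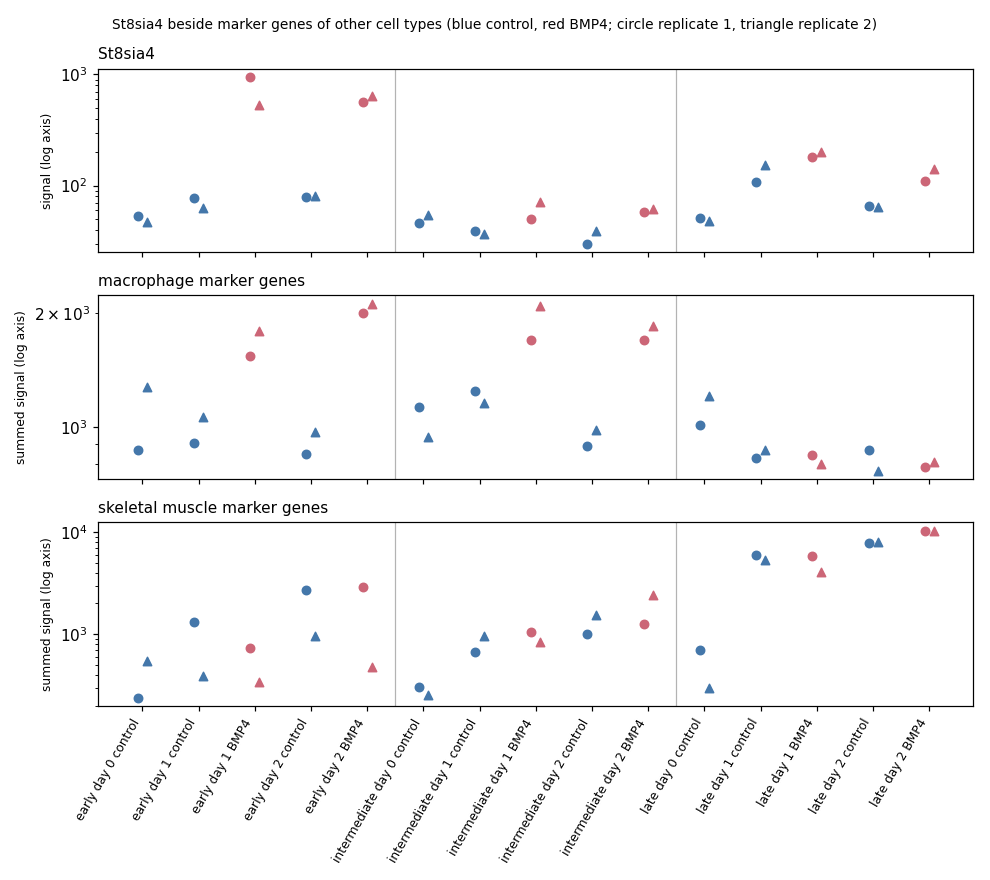
Signal of St8sia4 and the summed signal of the macrophage and leukocyte genes and of the skeletal muscle genes on every array, all on log axes; circles are replicate 1, triangles replicate 2, control is blue and BMP4 red. The macrophage sum was higher with BMP4 in early and intermediate cultures and stayed between 766 and 869 in late cultures of days 1 and 2.

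St8sia2, the polysialyltransferase most used in embryos, rose during the first day of culture and was not called for BMP4. Early control cultures went from 7.74 and 8.19 at day 0 to 8.76 and 8.89 at day 1. Intermediate cultures went from 8.11 and 7.35 to 9.29 and 9.30, and late cultures from 8.51 and 7.80 to 9.02 and 9.29. The groups did not overlap in any population. Of all genes, 15.5% were called in early, 21% in intermediate and 18.9% in late cells. The rises were 0.86 ± 0.27 (adjusted p = 0.0378), 1.56 ± 0.27 (0.000332) and 1.00 ± 0.27 (0.0129), or 1.81-fold, 2.95-fold and 2.01-fold. Without the doubted day 0 arrays they were 1.09 (adjusted p = 0.0159), 1.18 (0.00892) and 0.65 (0.162), so the late call was lost. The early call was also lost without early day 0 control replicate 1 (0.63, adjusted p = 0.271) and without either early day 1 control array (adjusted p = 0.0956 and 0.175), and the late call without late day 1 control replicate 2 (0.116) or late day 0 control replicate 2 (0.225). Median centring (0.0542), quantile normalization (0.0509) and a fit with no variance trend (0.0516) also ended the early call. The fall of the red blood cell signal over the same day was given above, and its part in these values was not tested. The second probe set gave 0.45 (adjusted p = 0.258), 1.13 (0.00212) and 0.66 (0.0701), and without the doubted arrays 0.71 (0.162), 1.04 (0.0344) and 0.58 (0.274).

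Under BMP4, St8sia2 differed from control by -0.14 to 0.43, each ± 0.27, in the 6 comparisons. The smallest adjusted p was 0.496, at early day 1, where the BMP4 arrays (9.37 and 9.14) lay above the control arrays (8.76 and 8.89). At day 0 its 3 means lay between 7.73 and 8.15 and the other 12 between 8.82 and 9.47. The gap from 8.15 to 8.82 was the one gap larger than the pooled SD of its neighbours, at 1.85 times. Oip5os1 (r = 0.97), Dnajc14 (0.964), Stx2 (0.962) and Cacna1h (0.961) ran most like it over the 15 group means.

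Ncam1, the main carrier of polysialic acid, rose on the first day in every population and was higher with BMP4 in all 6 comparisons, in most of them without being called. Early control cultures went from 6.81 and 7.01 at day 0 to 7.97 and 7.96 at day 1. Intermediate cultures went from 7.36 and 6.85 to 8.05 and 8.13, and late cultures from 7.26 and 7.15 to 7.93 and 8.02. No day 0 array reached a day 1 array of its population. The rises were 1.06, 0.99 and 0.77, each ± 0.16 (adjusted p = 8.37e-05, 0.000116 and 0.00139). Without the doubted arrays they were 1.16 (adjusted p = 0.000231), 0.74 (0.00767) and 0.72 (0.0113), all called. Of the 7 Ncam1 probe sets, 4 were kept, and 3 were below the 40th percentile on every array and were not used. The 3 kept beside the brightest did not all move with it. The brightest of these 3 rose by 2.13, 2.28 and 1.99 (adjusted p = 0.00159, 0.000597 and 0.00236). The next gave 0.61 (adjusted p = 0.279), 1.08 (0.0298) and 0.43 (0.437), and the dimmest 0.17 (0.757), 0.33 (0.452) and -0.55 (0.179), so in late cells its sign was opposite. In the fit without the doubted arrays the brightest of the 3 rose by 2.13, 1.33 and 2.55, all called, the next gave 0.22, 1.04 and 0.55 and the dimmest 0.31, -0.06 and -0.22, none of these called.

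With BMP4, Ncam1 was at 8.34 and 8.38 against 7.97 and 7.96 in early control cultures at day 1, and at 8.66 and 8.83 against 8.15 and 8.10 at day 2. The day 2 difference of 0.62 ± 0.16 was called (adjusted p = 0.0219) and the day 1 difference of 0.39 ± 0.16 was not (0.217). The day 2 call was lost without early day 2 control replicate 1 (adjusted p = 0.128), control replicate 2 (0.107) or BMP4 replicate 2 (0.233), and in a fit of the compared groups only (0.0907). In intermediate cultures the differences were 0.45 (adjusted p = 0.412) and 0.47 (0.855), and in late cultures 0.36 (0.582) and 0.21 (1). The BMP4 and control arrays did not overlap in any of the 6, as a description. Arrays lay apart without a call elsewhere too, as for Cdh11 in intermediate cultures on both days. With both days averaged, comparisons added after seeing the data, the Ncam1 difference was 0.51 ± 0.11 in early (adjusted p = 0.00481), 0.46 ± 0.11 in intermediate (0.0638) and 0.28 ± 0.11 in late cultures (0.414), and 0.37 ± 0.08 over both forelimb populations (0.0126). The early response was 0.05 ± 0.16 larger than the intermediate (adjusted p = 0.963) and 0.23 ± 0.16 larger than the late (0.597), differences that were not called. The averaged intermediate difference passed the threshold under several other settings, among them a pseudocount of 64, quantile normalization and the fit without the doubted day 0 arrays, with adjusted p from 0.0367 to 0.0497.

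Ncam1 means formed separate ranges at day 0 (6.91 to 7.21), in control cultures (7.97 to 8.25) and in BMP4 cultures (8.34 to 8.75). The step from day 0 to control was 13.7 times the pooled SD of its neighbours, and the step from control to BMP4 was within that SD (0.886 times). Ppp3ca (r = 0.975), Lrrn3 (0.971), Golim4 (0.97) and Mllt11 (0.969) ran most like Ncam1. Among the 5 genes, St8sia2 and Ncam1 were the pair with the most alike means (r = 0.876), and St8sia2 and St8sia4 the least alike (r = 0.362).

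**Figure D3:**
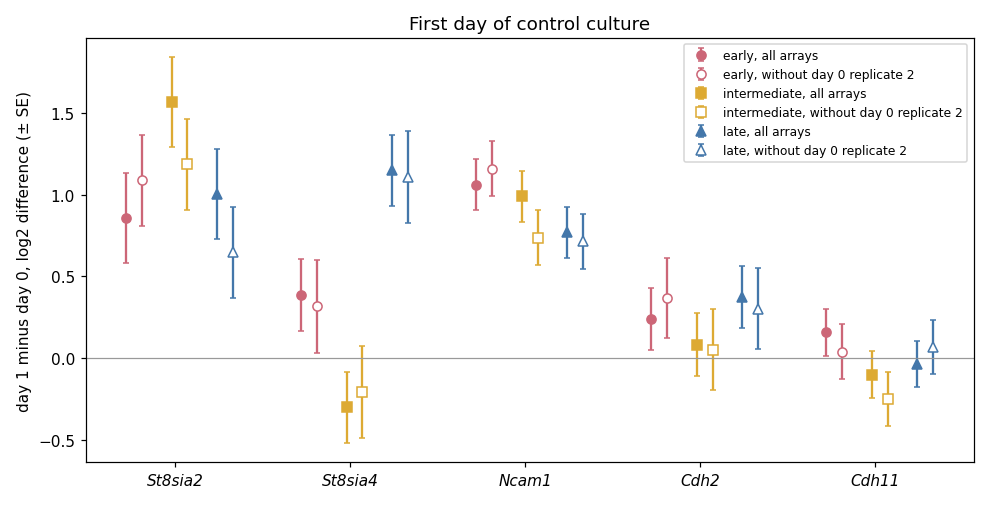
Change over the first day of control culture for each gene and population, as the log2 difference of day 1 minus day 0 with its standard error; filled symbols use all arrays and open symbols leave out the 3 doubted day 0 arrays. St8sia2 and Ncam1 lie above 0 in every population with and without these arrays, and St8sia4 rose in late cells.

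Cdh2 rose with BMP4 in early cultures on both days. Early control cultures were at 10.37 and 10.46 at day 1 and BMP4 cultures at 11.32 and 11.03; at day 2 they were at 9.93 and 10.12 against 11.23 and 11.31. The groups did not overlap. The rises were 0.76 ± 0.19, 1.70-fold (adjusted p = 0.0363), and 1.24 ± 0.19, 2.36-fold (adjusted p = 0.000863). The day 1 call was lost when any of its 4 arrays was left out (adjusted p = 0.243, 0.111, 0.202 and 0.065); the day 2 call was kept each time. The day 1 call was also lost with no variance trend (0.0617) and in a fit of the compared groups only (0.126). The second probe set gave 0.75 (adjusted p = 0.379) and 1.59 (0.0215).

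In intermediate cultures Cdh2 was at 10.45 and 10.70 against 10.40 and 11.06 with BMP4 at day 1, and at 10.88 and 10.96 against 10.70 and 11.03 at day 2, with overlap on both days. Its differences there were 0.16 and -0.06, and in late cultures 0.38 and 0.19, each ± 0.19, none called (adjusted p = 0.69 to 1). Averaged over both days, the early response of 1.00 exceeded the intermediate response of 0.05 by 0.95 ± 0.19 (adjusted p = 0.0249). It exceeded the late response of 0.28 by 0.72 ± 0.19 (adjusted p = 0.0913), which was not called. With a term for the replicate number in the fit, the early minus late difference was called (adjusted p = 0.033). The early minus intermediate call was lost when any 1 of 9 of its 16 arrays was left out, with adjusted p between 0.0521 and 0.0853, and in a fit of the compared groups only (0.0958).

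Early control cultures also had the lowest Cdh2 means, at 10.03 (day 2), 10.17 (day 0) and 10.41 (day 1). Over control cultures of days 1 and 2 they differed from intermediate cultures by -0.53 ± 0.13 (adjusted p = 0.0735) and from late cultures by -0.47 ± 0.13 (0.104), neither called. In a fit of the compared groups only, the early minus intermediate difference was called (adjusted p = 0.0459). With a term for the replicate number in the fit, both differences were called (adjusted p = 0.0255 and 0.0443). With BMP4 the early means of 11.17 and 11.27 were the highest, with late day 1 BMP4 at 11.16 within their spread. Over the first day of control culture Cdh2 differed by 0.08 to 0.37 ± 0.19, with adjusted p of 0.188 or more, and without the doubted arrays by 0.05 to 0.37. Zeb2 (r = 0.882), Sncaip (0.875), Prdm6 (0.87) and Gpr137 (0.835) ran most like it.

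**Figure D4:**
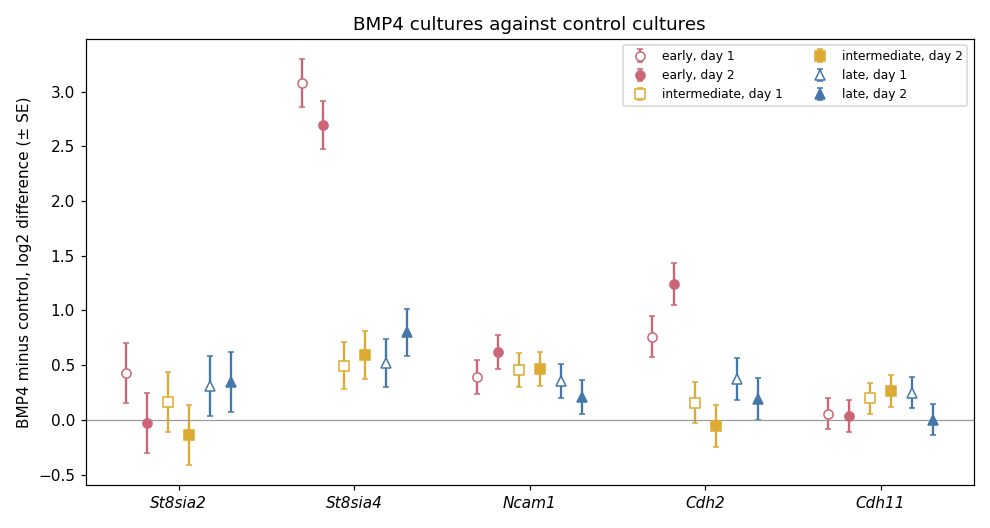
Log2 difference of BMP4 minus control for each gene, with its standard error (n = 2 arrays per group); colours and shapes are the populations, open symbols day 1 and filled symbols day 2. St8sia4 in early cells reached 3.08 and 2.69 and Cdh2 in early cells 0.76 and 1.24, while Cdh11 lay between 0.00 and 0.26.

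Cdh11 was bright and nearly level. It lay between 11.39 and 11.99 on all 30 arrays, and its 15 group means spanned 0.38, against a pooled SD of 0.15 within groups. It was called in no comparison; its BMP4 differences were 0.00 to 0.26 ± 0.14, with adjusted p of 0.759 or more. Its first-day differences were 0.16, -0.10 and -0.03, and without the doubted arrays 0.04, -0.25 and 0.07. The dimmer probe set ranged from 8.13 to 9.62, with BMP4 differences from -0.05 to 0.66, none called. Tmtc1 (r = 0.84), Trim5 (0.829), St6galnac5 (0.821) and Pramel1 (0.813) had the most similar means.

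Counted over the 5 genes, BMP4 gave 3 calls in 28 tests, all higher: Cdh2 at early day 1 and Cdh2 and Ncam1 at early day 2. The early St8sia4 values are outside this count. Those 3 stand beside the 2.45% and 5.68% of all genes called in early cells. The median differences of all 5 genes at day 2 were 0.62 in early, 0.26 in intermediate and 0.21 in late cultures. Over all genes they were 0.02, 0.02 and -0.01. The early median includes the untested St8sia4 value of 2.69. The 4 genes tested there gave -0.03 (St8sia2), 0.62 (Ncam1), 1.24 (Cdh2) and 0.04 (Cdh11). The difference of the response gave 1 call in 13 tests, with 0.429% of genes called for early minus intermediate and 0.78% for early minus late. With days averaged, 4 of 19 tests were called, Ncam1 and Cdh2 in early cells and St8sia4 and Ncam1 over both forelimb populations. Of all genes, 11% were called in early cultures and 2% over both forelimb populations. None of the 5 genes was called in intermediate or late cultures alone, where 0.509% and 0.277% of all genes were called.

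The first day of control culture gave 7 calls in 15 tests, all higher, beside the 15.5%, 21% and 18.9% of all genes called. Without the doubted arrays it gave 6, and 11.7%, 12.9% and 10.3% of all genes were called. The medians of the 5 genes were 0.39, 0.08 and 0.77 in early, intermediate and late cells, against -0.00, -0.02 and 0.03 over all genes; without the doubted arrays they were 0.37, 0.05 and 0.65 against 0.05, -0.01 and 0.01. The second day gave 0 calls in 30 tests with limma, and 3 had an unadjusted p under 0.05. Of all genes 1.21%, 0.832% and 0.846% were called between control days 1 and 2 in early, intermediate and late cells, and 0.403%, 0.608% and 0.667% between BMP4 days 1 and 2. Late St8sia4 in control medium had the smallest adjusted p (0.0796).

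Populations compared over all cultures of days 1 and 2 gave 1 call in 13 tests: St8sia4 was lower in intermediate than in late cells, at -1.12 ± 0.11 (adjusted p = 7.3e-07). Of all genes 7.64% were called there, 9.02% for early minus late and 3.26% for early minus intermediate. The St8sia4 call was that of the brighter probe set. Group means of the dimmer lay between 4.90 and 5.58 in intermediate and between 5.11 and 5.88 in late cultures, so these ranges overlapped. At day 0, 0 of 15 tests were called with limma and 0 had an unadjusted p under 0.05, where 0% of all genes were called in each of the 3 comparisons and 336, 514 and 506 genes had an unadjusted p under 0.05. The doubted arrays enter each of those comparisons. Without them only replicate 1 is left in each population at day 0. The differences then reached -0.77 for St8sia2 (early minus late) and -0.55 for Ncam1 (early minus intermediate). So these comparisons cannot show whether the populations were alike at day 0.

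Nanp, one of the enzymes that supply the sialic acid for polysialylation, rose on the first day in every population. Gne and Nanp make the sugar, Cmas activates it and Slc35a1 carries it into the Golgi. Of 5 genes, 1 rose in early, 3 in intermediate and 4 in late cultures, and 0 fell, where 15.5%, 21% and 18.9% of all genes were called, so the early count is near the share of all genes. The list's medians were 0.23, 0.35 and 0.43 against -0.00, -0.02 and 0.03 over all genes. Without the doubted arrays 1, 2 and 2 of the 5 genes rose, Nanp in each population and Gne in both forelimb populations, where 11.7%, 12.9% and 10.3% of all genes were called, and the medians were 0.309, 0.315 and 0.465. Nanp rose by 1.12 ± 0.22, 1.28 ± 0.22 and 1.76 ± 0.22 (adjusted p = 0.00105, 0.000223 and 1.02e-05), and without the doubted arrays by 1.04, 1.25 and 1.84, all called. With BMP4 at early day 2, Nanp (-0.73 ± 0.22, adjusted p = 0.0487) and Cmas (-0.32 ± 0.09, 0.0381) fell, while St8sia4 was higher there. With both days averaged, Slc35a1 rose in early cultures (0.33 ± 0.10, adjusted p = 0.0308) and Cmas fell (-0.22 ± 0.06, 0.0285). None of the 5 was called at early day 1 or in forelimb cultures with BMP4. Among the 6 alpha-2,8-sialyltransferases, St8sia1, a ganglioside enzyme, rose in intermediate cells on the first day (1.00 ± 0.31, adjusted p = 0.0252), a call lost without the doubted arrays (0.75, adjusted p = 0.253). Neither of the 2 sialidases tested, enzymes that remove sialic acid, was called for BMP4 or on the first day.

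Of 15 genes in a list of NCAM with its relatives and partners, which holds Ncam1 itself, 3 rose, Ncam1 among them, and 1 fell with BMP4 at early day 2. Of all genes, 5.68% were called there. Cntn4 and Cntn1 encode contactins, neural adhesion molecules of the immunoglobulin family. Cntn1 rose with Ncam1 (1.65 ± 0.27, limma adjusted p = 0.00149). Cntn4 differed by 2.10 ± 0.31, as a description. Its mean was 4.29 in early day 2 control, near the floor of 4, and 6.39 with BMP4. Every other Cntn4 group mean was below the 40th percentile of the arrays (5.18 to 5.54), so it could pass the filter through that group. Fgfr1, a growth factor receptor that NCAM can engage, fell, with a mean of 9.83 against 10.55 in control. The list's median was 0.27 against 0.02 over all genes. On the first day, 2, 3 and 3 of the 15 rose in early, intermediate and late cells and 0 fell, beside the 15.5%, 21% and 18.9% of all genes called, so these counts are near the share of all genes. Ncam1 was 1 of them in each population, which leaves 1, 2 and 2 of the other 14. Gfra1, a GDNF co-receptor, rose in intermediate (1.60 ± 0.35, adjusted p = 0.00198) and late cells (1.18 ± 0.35, 0.0194). Without the doubted arrays 1, 2 and 2 of the 15 rose, or 0, 1 and 1 of the other 14, and late Gfra1 was not among them (adjusted p = 0.196). Nrp2, a neuropilin that can carry polysialic acid, fell on the first day in intermediate cells (-1.31 ± 0.32, adjusted p = 0.00551) and late cells (-0.96 ± 0.32, 0.0407); without the doubted arrays the late call was lost (adjusted p = 0.227). With BMP4 averaged over both days Nrp2 rose in early cells (0.86 ± 0.23, adjusted p = 0.0174). Over all cultures of days 1 and 2 it was higher in early than in intermediate cells (1.20 ± 0.16, adjusted p = 0.000105) and than in late cells (0.63 ± 0.16, 0.0177), and lower in intermediate than in late cells (-0.57 ± 0.16, 0.0291).

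Of 15 classical and related cadherins tested, Cdh2 was joined by Cdh9 at early day 1 with BMP4 (1.44 ± 0.28, adjusted p = 0.00498), and by Cdh7 (1.12 ± 0.28, 0.0198) and Cdh9 (1.05 ± 0.28, 0.0272) at early day 2; 0 fell. The list's medians were 0.48 and 0.52 against 0.05 and 0.02 over all genes, of which 2.45% and 5.68% were called. Early control means of Cdh9 were 4.66 and 4.72 at days 1 and 2, below the 40th percentile of the arrays (5.18 to 5.54). With BMP4 they were 6.11 and 5.77, and every other Cdh9 group mean was 5.20 or lower. Its calls thus lean on cultures through which it could pass the filter. Cdh7 was at 4.67 in early day 2 control, also below that percentile. On the first day Cdh1, the epithelial cadherin, fell (-1.54, -1.67 and -2.26 in early, intermediate and late cells), and so did Cdh5, the endothelial cadherin (-1.45, -1.51 and -1.68), all called. Without the doubted arrays the Cdh5 falls were called in every population, and the Cdh1 fall in late cells only (adjusted p = 0.0614, 0.0659 and 0.0176). Part of the ectoderm and endothelium markers, lists that include Cdh1 and Cdh5, also fell. Other ectoderm markers did not: Krt8, Krt14 and Krt18 had higher early means at day 1 than at day 0. Of all genes, 15.5%, 21% and 18.9% were called, and the ectoderm counts that follow are not far above that. In early cultures 3 of 13 and 5 of 12 fell, in intermediate 4 and 5, and in late 3 and 7. These counts were 2 and 7, 3 and 5, and 3 and 7 without the doubted arrays. Cdh15, a muscle cadherin, rose in late cells (2.03 ± 0.38, adjusted p = 0.000821), where 11 of 14 skeletal muscle genes rose, Cdh15 among them; without the doubted arrays 9 rose, again with Cdh15 (1.69, adjusted p = 0.0218). Of 16 catenins and junction partners, 1 rose with BMP4 at early day 1, Neo1 (0.57 ± 0.14, limma adjusted p = 0.0356). At early day 2 it was 1 as well, Vcl, which encodes vinculin (0.59 ± 0.17, 0.0478). Of all genes, 2.45% and 5.68% were called on these days, so 1 of 16 is near that share.

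Tnc, which encodes tenascin-C, and Col9a3, which encodes a collagen IX chain, rose over the same first day as St8sia2 and Ncam1. Of 11 matrix and receptor genes of condensation, 5 rose in early, 7 in intermediate and 4 in late cells, and 0 fell, beside the 15.5%, 21% and 18.9% of all genes called, with medians of 0.80, 0.71 and 0.47. Without the doubted arrays 4, 3 and 3 rose, beside 11.7%, 12.9% and 10.3% of all genes, with medians of 0.903, 0.866 and 0.499. Tnc rose by 2.95 ± 0.24, 3.15 ± 0.24 and 3.45 ± 0.24 (adjusted p = 1.44e-07, 3.93e-08 and 1.85e-08), and without the doubted arrays by 3.34, 3.21 and 3.55, all called. Of 14 cartilage genes, 10, 10 and 9 rose, and 9, 9 and 6 without the doubted arrays; Col9a3 rose by 4.51, 4.74 and 4.12 ± 0.48 (adjusted p = 2.87e-06, 9.67e-07 and 7.16e-06), and without the doubted arrays by 4.87, 4.59 and 3.52, all called. With BMP4 at early day 2, where Cdh2, Ncam1 and St8sia4 were higher, 7 of the 14 cartilage genes fell and 0 rose. Matn1, a cartilage matrix protein, differed by -3.41 ± 0.52 (adjusted p = 0.000892) and Cnmd, chondromodulin, by -3.25 ± 0.57 (0.00238). In forelimb cultures at single days, none of the 14 was called for BMP4. With both days averaged, Acan, which encodes aggrecan, rose in late cultures (1.35 ± 0.24, adjusted p = 0.0152) and over both forelimb populations (1.03 ± 0.17, 0.00261), while in early cultures 10 of the 14 fell and Acan was among them. The Acan response was lower in early than in late cultures by 2.23 on the log2 scale, a difference of -2.23 ± 0.35 (adjusted p = 0.00272), and differed from intermediate cultures by -1.59 ± 0.35 (0.043).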

How the data were processed

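RNA of 30 cultures was measured on 1-colour Affymetrix Mouse 430 2.0 arrays. The deposited intensity is a linear MAS5 signal, per the submitters' processing notes (settings: not given in the sources used here). Every array has a trimmed mean of 150. No detection calls were used, and differences of dim genes are understated by the pseudocount of 16. A probe set was kept above its array's 40th percentile on at least 2 arrays (33198 of 45101), and the brightest per gene was used. Of all probe sets, 34945 had 1 gene symbol in the platform annotation, 932 several and 9160 none, and 64 were controls; 34741 were matched to a gene table of GRCm38.p6.

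One limma 3.58.1 fit in R 4.3.3 held a mean for each of the 15 groups, no replicate block and a variance trend, with Benjamini-Hochberg adjustment over 15136 genes within each comparison, two-sided, at 0.05. Standard errors are moderated. The procedure was tested on simulated data. The members, lists and tests were chosen with earlier results of these data known. The rule for named genes took the 5 members, up to 3 genes per list and comparison with the smallest adjusted p past the threshold, the 4 genes most like each member over the 15 group means, and 4 genes for checking limb type; Fgfr1 fell outside it and is named from its call. Averaged BMP4 responses and comparisons of populations within control medium were added with the data seen. Replicates are cultures that the labels call biological; the number of arrays limits the precision. A growth protocol also mentions E11.5 cultures, and no array is placed there.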

Additional observations from a re-analysis of the deposited data

Results flagged for a closer look

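Cdh2 answered BMP4 more in early than in intermediate cells, a difference of the responses of 0.95 on the log2 scale (limma interaction, adjusted p = 0.0249). As given above, this call was lost when any of several single arrays was left out. It was also lost in a fit of the compared groups only (limma, adjusted p = 0.0958).

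The values that follow are differences between populations of a change on which both arrays of one population moved one way and both of the other the opposite way; none of these differences was tested. St8sia4 changed over the first control day by 0.39 in early, -0.30 in intermediate and 1.15 in late cells, which gives 0.684 for early minus intermediate and -1.44 for intermediate minus late; without the 3 doubted day 0 arrays the gaps are 0.521 and -1.31. Over the second control day St8sia4 moved by 0.16 in early and -0.84 in late cells, a gap of 0.993. St8sia2 moved by 0.20 in early, -0.26 in intermediate and -0.20 in late cells over the second control day, each smaller than its SE of 0.27. This gives 0.467 for early minus intermediate and 0.40 for early minus late. Cdh2 moved by -0.39 in early and 0.35 in intermediate cells over that day, a gap of -0.732.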

How the results depend on the processing

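Over 65 single-gene values (all called ones and those of at least 1.5 standard errors), none changed sign in 650 recomputations under other settings or in 460 that left out 1 array. Values picked for lying away from 0 were likely to keep their sign. Every setting read the same probe set of each gene, and the dimmer St8sia4 probe set had the opposite sign for the late first-day change. A pseudocount of 1 moved the early day 1 St8sia4 difference to 3.33, and 64 moved it to 2.53 and the day 2 difference to 2.22; leaving out 1 array gave 2.66 to 3.49 and 2.60 to 2.79. Fitting only the compared groups left 1 of 3 BMP4 calls and 0 response-difference calls. Same-numbered arrays deviated together in some pairs of groups and not in others (105 correlations, -0.125 to 0.349, median 0.121, 57.1% above 0.1). The red blood cell sum was higher on replicate 1 than on replicate 2 in 15 of 15 groups. The rule used asked for every correlation above 0.1, so the main fit holds no replicate block. Whether same-numbered arrays share a batch was not tested. With the replicate block there were 2 response-difference calls and 4 calls between control cultures, where a pseudocount of 64 left 1 of 2. The calls gained with the block were Cdh2 for the response in early minus late cells (0.72, adjusted p = 0.033), Cdh2 in early minus intermediate (-0.53, 0.0255) and early minus late (-0.47, 0.0443) control cultures, and Ncam1 for BMP4 averaged over days in intermediate cells (0.46, 0.0439); the block left the other counts within 1.5 times. Leaving out 1 array gave 2 to 3 BMP4 calls, 0 to 2 response-difference calls, 6 to 7 first-day calls, 0 to 1 second-day calls, 1 population call, 0 day 0 calls, 4 to 5 averaged BMP4 calls and 1 to 2 control culture calls. With 1 array left out, the lone array of a group is assumed to vary like the other groups. The causes were not tested. The averaged forelimb rise of St8sia4 stayed called under every alternative run. Without detection calls, low St8sia4 levels cannot be told from background.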
